A study of Mus musculus with 6 samples.

Results

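The SR splicing factors described here are 10 mouse genes of the serine/arginine-rich family, Srsf1, Srsf2, Srsf3, Srsf4, Srsf5, Srsf6, Srsf7, Srsf9, Srsf10 and Srsf11, taken by symbol from the 55487 genes of the count table. Each symbol matched 1 Ensembl identifier, and all 10 were among the 21141 genes with enough counts to be tested. The family was chosen by its name with the measured difference between the groups already in view. Every member's value in that comparison is thus a description with no p-value printed. Counts of members that were called are no test of the family. The RNA came from MIN6, a mouse insulinoma line used as a model of the beta cell. PTHrP libraries (n = 3) are of MIN6 cells transiently transfected, with Lipofectamine 2000, with full-length parathyroid hormone-related protein, and DsRed libraries (n = 3) of MIN6 cells given the DsRed vector by the same reagent. RNA was collected no later than 3 days after transfection, the share of cells that took up either construct is not given in the sources used here, and no untransfected library was analysed here.

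SR proteins bind exons through RNA recognition motifs and recruit the splicing machinery through a tail of repeated arginine and serine residues. Kinases of the SRPK and CLK families phosphorylate that tail, which controls where in the nucleus the proteins sit and when they act. Most SR genes also limit their own output, because high SR protein levels favour transcript forms that carry an early stop codon or keep an intron, and such forms are degraded or stay in the nucleus. In beta cells, splicing programmes shape genes of secretion and survival, and SRSF6 has been studied for this in human beta cells.

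The 6 libraries held 84427033 to 94613684 counts in genes. The transfected gene Pthlh had 697, 553 and 797 counts in the PTHrP libraries, against 0, 4 and 8 counts in the DsRed libraries. All 10 beta cell markers were among the genes tested, with summed levels of 49136 to 55598 CPM in PTHrP and 50598 to 62617 CPM in DsRed. CPM is a gene's count relative to its library total, on a fixed scale common to all libraries, after TMM scaling for differences in library make-up. The 6 markers of other islet cells summed to 135 to 175 CPM in PTHrP and 145 to 153 CPM in DsRed, and the 5 of acinar and duct cells to 1.81 to 2.38 CPM in PTHrP against 1.54 to 2.56 CPM in DsRed. The 4 of fibroblasts summed to 4.33 to 4.43 CPM in PTHrP against 4.48 to 4.96 CPM in DsRed, and the 4 of endothelial and blood cells to 2.17 to 3.72 CPM in PTHrP against 2.95 to 4.47 CPM in DsRed. No marker was at 0 in all 6 libraries. PTHrP replicate 2 stood farthest from the other libraries of its group, at a median distance per gene of 0.141 on the log2 scale, where the other 5 libraries lay at 0.0690 to 0.109. In bulk RNA, fewer cells that express a gene and less of its RNA per cell cannot be told apart.

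Across the family, PTHrP libraries had lower levels than DsRed libraries for 9 of 10 members, by small amounts. The median log2 fold change of the 10 genes, PTHrP minus DsRed, was -0.09, against -0.01 over all genes tested, where 51.3% of genes were on the negative side. Srsf1 had the most negative value, -0.39 with an approximate standard error (SE) of 0.06, followed by Srsf10 at -0.29 (SE 0.08) and Srsf2 at -0.24 (SE 0.10). Srsf9 was the single member on the positive side, at 0.07 (SE 0.06). No member passed the edgeR quasi-likelihood test over all genes at an adjusted p under 0.05 (0 of 10), where 0.0426% of all genes passed in either direction and 0.0237% passed as lower. Unadjusted p-values under 0.05 were found for 4 members, all lower, and for 3.98% of all genes as lower and 4.92% as higher. Those 4 are no evidence for the family, because its members were picked with these same differences in view. By adjusted p under 0.05, limma-voom called 0 members and 0.0426% of all genes, and DESeq2 called 1 member, Srsf1, and 0.907% of the 14992 genes to which it gave an adjusted p. Groups that did not overlap, with every PTHrP library below every DsRed library, were seen for 2 of 10 members and for 7.88% of all genes, and the opposite for 0 of 10 members and 8.45% of all genes, or 16.3% in both directions together. These shares are the background for the counts, and nothing about the family is read from them, since the comparison was in view when the genes were picked.

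The upstream sequences of 3 members are shown because they span the range of fold changes, from Srsf1 and Srsf10 at the low end to Srsf9 at the high end. Each is the 250 bases before the RefSeq transcription start, 5′ to 3′ on the gene's own strand, on build GRCm38.p6. They lie at chr11:88047123-88047372 (Srsf1, plus strand), chr4:135855821-135856070 (Srsf10, plus strand) and chr5:115326927-115327176 (Srsf9, plus strand). In the GENCODE M21 annotation Srsf10 begins at 135855747, so its window lies wholly inside the annotated gene. The windows of Srsf1 and Srsf9 end right before the annotated gene. Capitals mark matches, on either strand, to GGGCGG (a GC box), TGACG (the core of the cAMP response element) and CCAAT.
Srsf1: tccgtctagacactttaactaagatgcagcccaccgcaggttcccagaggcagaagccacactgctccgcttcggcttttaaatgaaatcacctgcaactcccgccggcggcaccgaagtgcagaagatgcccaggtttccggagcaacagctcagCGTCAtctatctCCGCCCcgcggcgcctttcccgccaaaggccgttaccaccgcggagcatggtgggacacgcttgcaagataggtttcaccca
Srsf10: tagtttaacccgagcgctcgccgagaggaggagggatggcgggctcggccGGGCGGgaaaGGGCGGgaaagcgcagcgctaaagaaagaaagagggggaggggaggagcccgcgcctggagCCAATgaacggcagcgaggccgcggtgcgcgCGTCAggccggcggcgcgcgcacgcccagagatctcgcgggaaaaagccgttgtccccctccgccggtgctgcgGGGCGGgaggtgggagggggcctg
Srsf9: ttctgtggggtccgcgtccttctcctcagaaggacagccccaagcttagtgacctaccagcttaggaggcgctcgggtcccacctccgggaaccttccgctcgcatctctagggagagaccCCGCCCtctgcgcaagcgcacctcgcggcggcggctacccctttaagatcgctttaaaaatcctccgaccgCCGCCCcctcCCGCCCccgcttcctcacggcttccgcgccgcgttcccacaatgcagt

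The TGACG match began 94 bases before the start in Srsf1 and 98 bases before it in Srsf10, and Srsf9 held none. Srsf10 and Srsf9 each had 3 GC boxes and Srsf1 had 1. Taking the first listed start of each gene, GGGCGG was found upstream of 9 of the 10 SR genes and of 32.9% of 27025 mouse genes, all but Srsf3 holding it. TGACG was found upstream of 6 SR genes, Srsf1, Srsf3, Srsf5, Srsf6, Srsf10 and Srsf11, and of 17.9% of genes. The SR genes without it were Srsf2, Srsf4, Srsf7 and Srsf9, and any link of the motif to the fold changes was not tested. CCAAT was found in 3 SR genes against 34.5% of genes, TATAAA in 2 against 13.0%, and CCGGAAGT, a site of ETS factors, in 2 against 2.93%. The full element TGACGTCA, which contains TGACG, was in 0 of 10 against 1.62% of genes, and CACGTG in 0 of 10 against 6.05%. The windows of the family, every listed start included, had a GC content of 56.8% to 78.0%, where the median gene had 52.0%, and short GC-rich words are more frequent in GC-rich sequence. A match is a description of the letters and no binding was measured.

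Srsf1 encodes a founding SR protein of constitutive and alternative splicing that also shuttles to the cytoplasm. It had 205, 197 and 206 CPM in the PTHrP libraries, against 284, 267 and 248 CPM in the DsRed libraries. All PTHrP libraries lay below all DsRed libraries, and the gap was wider than the spread inside either group. The means were 203 ± 5.19 CPM in PTHrP and 266 ± 17.9 CPM in DsRed (SD, n = 3 each), a difference of -23.9% relative to DsRed. The gene lies on chromosome 11 at 88047373 to 88053755 of GRCm38, and its exons share 98 bases with the antisense gene Gm11508, which had 9, 2 and 3 counts in PTHrP and 0, 3 and 4 counts in DsRed.

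Srsf10 encodes an SR protein that turns into a splicing repressor when it loses its phosphates, as after heat shock. Its level was 80.1, 79.3 and 82.1 CPM in the PTHrP libraries and 109, 101 and 85.9 CPM in the DsRed libraries. The groups did not overlap, but DsRed replicate 3 lay much nearer to the PTHrP libraries than the other DsRed libraries did. The means were 80.5 ± 1.44 CPM in PTHrP and 98.6 ± 11.7 CPM in DsRed (SD, n = 3 each), a difference of -18.4%. Leaving out DsRed replicate 3 gave a log2 fold change of -0.38, and leaving out DsRed replicate 1 gave -0.22. Srsf10 lies on chromosome 4 at 135855747 to 135869908.

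**Figure D1:**
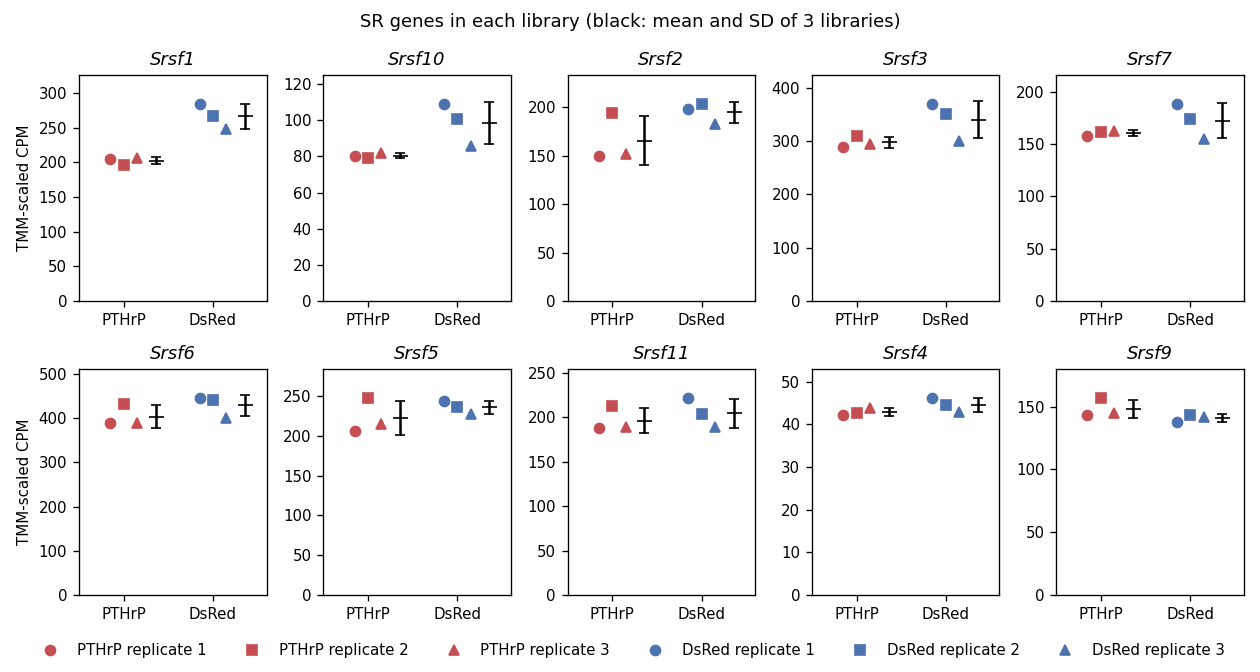
Each panel plots 1 SR gene, with TMM-scaled CPM from 0 on the vertical axis and the 3 PTHrP libraries left of the 3 DsRed libraries; black marks are the mean and SD of 3 libraries. Panels run from the most negative to the most positive fold change, and the groups are apart in the Srsf1 and Srsf10 panels alone.

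Srsf2, also known as SC35, encodes a component of nuclear speckles that stays mostly in the nucleus. It had 150, 195 and 152 CPM in the PTHrP libraries and 199, 203 and 183 CPM in the DsRed libraries. PTHrP replicate 2 lay inside the DsRed range, and the other 2 PTHrP libraries lay below it. The means were 166 ± 25.2 CPM in PTHrP and 195 ± 10.7 CPM in DsRed (SD, n = 3 each). Leaving out PTHrP replicate 2 gave Srsf2 a log2 fold change of -0.37, and leaving out PTHrP replicate 1 gave -0.17, against -0.24 with all libraries. Srsf2 lies on chromosome 11 at 116849901 to 116853094, where its exons share 460 bases with Mettl23 and 288 bases with Mfsd11 on the opposite strand. Mfsd11 averaged 136 ± 2.89 CPM in PTHrP libraries and 125 ± 6.50 CPM in DsRed libraries (SD, n = 3 each). Mettl23 averaged 11.1 ± 0.813 CPM in PTHrP libraries and 9.69 ± 1.13 CPM in DsRed libraries (SD, n = 3 each). The strand setting of the counting is unknown here, so how reads in the shared bases were assigned cannot be told.

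Srsf3 encodes the smallest SR protein, which links splicing, 3′ end choice and export of mRNA. Its level was 289, 309 and 294 CPM in the PTHrP libraries and 369, 351 and 301 CPM in the DsRed libraries. DsRed replicate 3 lay between PTHrP replicates 2 and 3, so the groups overlapped. The log2 fold change was -0.19 (SE 0.07), with a range of -0.27 to -0.13 over the fits that left out 1 library. A processed pseudogene, Srsf3-ps, was counted separately at 4.87, 5.93 and 6.06 CPM in the PTHrP libraries and 5.77, 5.47 and 5.33 CPM in the DsRed libraries. How reads matching both the gene and the pseudogene were handled is not given in the sources used here.

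Srsf7, the relative of Srsf3 that carries a zinc knuckle and also takes part in mRNA export, had 158, 162 and 163 CPM in the PTHrP libraries and 188, 175 and 155 CPM in the DsRed libraries. Here DsRed replicate 3 was the lowest of all 6 libraries. The means were 161 ± 2.78 CPM in PTHrP and 173 ± 16.7 CPM in DsRed (SD, n = 3 each). This gave a log2 fold change of -0.10 (SE 0.07), which lay at -0.17 when DsRed replicate 3 was left out and at -0.04 when DsRed replicate 1 was. The Srsf7 difference was thus smaller than the spread of the DsRed libraries.

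Srsf4, Srsf5 and Srsf6 form a subfamily whose proteins have a pair of RNA recognition motifs and long RS tails. Srsf6 had the largest count of any member, with 390, 433 and 388 CPM in the PTHrP libraries and 445, 441 and 401 CPM in the DsRed libraries. Srsf5 had 207, 247 and 215 CPM in PTHrP, against 244, 237 and 227 CPM in DsRed. Srsf4 had the smallest count of the 10, at 42.1, 42.7 and 43.9 CPM in the PTHrP libraries and 46.1, 44.5 and 42.8 CPM in the DsRed libraries. The groups overlapped for all 3 genes, and in Srsf5 the highest of the 6 libraries was PTHrP replicate 2. Their log2 fold changes were -0.09 for Srsf6 (SE 0.06), -0.08 for Srsf5 (SE 0.07) and -0.05 for Srsf4 (SE 0.07). With 1 library left out, the value of Srsf6 ran from -0.14 (PTHrP replicate 2 left out) to -0.06 (DsRed replicate 1 left out). That of Srsf5 ran from -0.16 (PTHrP replicate 2 left out) to -0.03 (PTHrP replicate 1 left out), and that of Srsf4 from -0.08 (DsRed replicate 3 left out) to -0.03 (DsRed replicate 1 left out). Exons of Srsf4 share 1532 bases with Gm12992 on the opposite strand, a gene whose level was 0.172 ± 0.107 CPM (PTHrP) and 0.250 ± 0.185 CPM (DsRed; SD, n = 3 each).

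Srsf11, whose protein has an RS domain and contacts the factor that recognises the 3′ splice site, had 188, 213 and 189 CPM in the PTHrP libraries and 221, 203 and 189 CPM in the DsRed libraries. PTHrP replicate 2 lay between DsRed replicates 1 and 2, and the log2 fold change of -0.06 (SE 0.07) was -0.12 without PTHrP replicate 2 and 0.00 to 2 decimals without DsRed replicate 1. Srsf9, a close relative of Srsf1 with a short RS tail, had 143, 157 and 145 CPM in the PTHrP libraries and 137, 144 and 142 CPM in the DsRed libraries. The groups overlapped for Srsf9, because PTHrP replicate 1 was below DsRed replicate 2. Its log2 fold change of 0.07 was 0.03 when PTHrP replicate 2 was left out and 0.10 when PTHrP replicate 1 was. Srsf9 averaged 148 ± 7.45 CPM in PTHrP and 141 ± 3.17 CPM in DsRed (SD, n = 3 each). It lies on chromosome 5 at 115327177 to 115333080. The remaining mouse family gene, Srsf12, which is no member here, had 19, 19 and 14 counts in PTHrP and 26, 17 and 17 counts in DsRed, which gave a fold change on the log2 scale of -0.20 (SE 0.58; adjusted p = 0.945, edgeR).

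Counting error was smaller than the spread between libraries, but in Srsf4 it was not much smaller. That gene differed by -3.58% between the groups, with a coefficient of variation of 2.10% over the PTHrP libraries. The lowest count of any member in a library gave a counting coefficient of variation of 1.66% for Srsf4 and of 0.546% for Srsf6, the 2 ends of the family. The coefficient of variation over the 3 libraries of a group was 1.73% to 15.2% in PTHrP and 2.25% to 11.8% in DsRed. Libraries therefore differed by more than counting for most members, and the number of libraries, not the depth, limits the precision.

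Single libraries moved many members together. Within the DsRed group, replicate 3 was the lowest library for 9 of 10 members and replicate 1 the highest for 8. Within the PTHrP group, replicate 1 was the lowest for 7 members and replicate 2 the highest for 6. Summed over the family, the level was 1852, 2034 and 1878 CPM in the PTHrP libraries and 2243, 2166 and 1974 CPM in the DsRed libraries. PTHrP replicate 2 was thus above DsRed replicate 3, and the 2 groups overlapped. The sums averaged 1921 ± 98.4 CPM in PTHrP and 2128 ± 138 CPM in DsRed (SD, n = 3 each), a difference of -206 CPM or -9.70%. This difference was -283 CPM without DsRed replicate 3 and -152 CPM without DsRed replicate 1, and the median log2 fold change of the 10 members was -0.15 and -0.06 in the same fits. Without PTHrP replicate 2, the library that stood farthest from its group, the difference in the sum was -259 CPM and the median log2 fold change -0.15, with 9 of 10 members still negative.

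**Figure D2:**
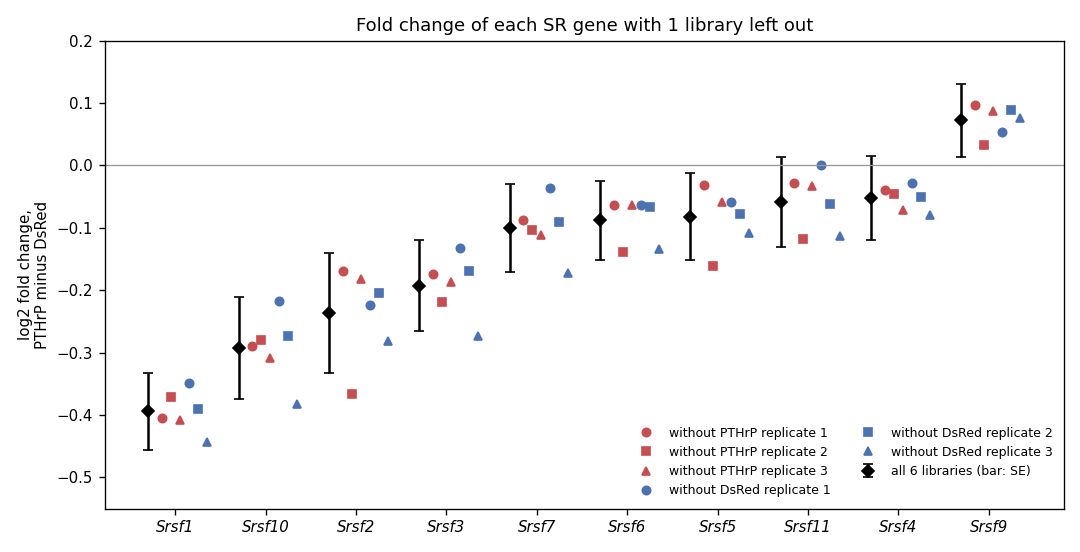
The log2 fold change (PTHrP minus DsRed) of each SR gene is plotted from all 6 libraries, as a black diamond with its SE, and from the 6 fits that leave out 1 library each. Srsf1 stays between -0.44 and -0.35, and Srsf2 moves most when PTHrP replicate 2 is left out.

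The make-up of the family's counts does not depend on any scaling between libraries. Srsf1 made up 11.1%, 9.67% and 11.0% of the SR counts in the PTHrP libraries and 12.7%, 12.3% and 12.6% in the DsRed libraries, with no overlap. Srsf9 made up 7.72%, 7.70% and 7.71% in PTHrP, against 6.13%, 6.63% and 7.17% in DsRed, again with no overlap and with higher shares in PTHrP. Shares of Srsf6 averaged 21.0% ± 0.299 in PTHrP and 20.2% ± 0.290 in DsRed, and those of Srsf11 averaged 10.2% ± 0.216 in PTHrP and 9.61% ± 0.246 in DsRed (SD, n = 3 each). In both of these genes every PTHrP share was above every DsRed share. The 10 shares add up to the whole, so a lower share of 1 gene raises the others by construction. For the other 6 members the shares of the groups overlapped. By CPM, 16.3% of all genes had groups that did not overlap, but no such background was computed for shares within a family. Nothing about the family is therefore read from how many members were apart.

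**Figure D3:**
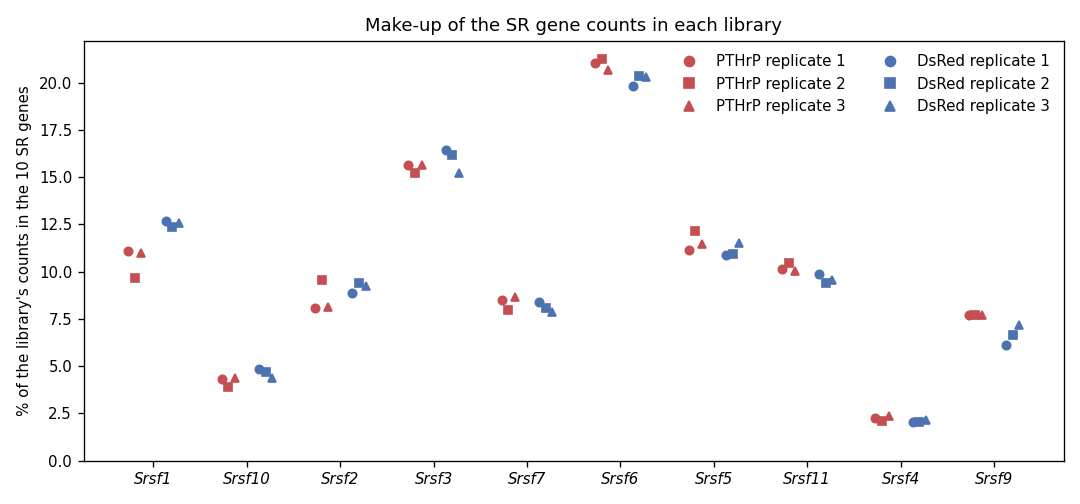
The percentage of each library's SR counts taken by each of the 10 genes is plotted from 0, with PTHrP libraries left of DsRed libraries. Srsf6 and Srsf3 take the largest shares in every library, and the groups are apart for Srsf1, Srsf6, Srsf9 and Srsf11. No background over all genes was computed for such shares.

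Levels of different genes were compared per length, as CPM per kilobase of annotated exon (GENCODE M21), over all 6 libraries. Srsf9 averaged 87.4 ± 3.92 and Srsf6 averaged 86.5 ± 5.43 CPM per kb (SD, n = 6), and the libraries of this leading pair overlapped. Srsf2 followed at 60.9 ± 8.0 CPM per kb, below every library of Srsf6. Srsf5 had 57.5 ± 4.07, Srsf7 had 47.0 ± 3.51, Srsf1 had 41.1 ± 6.45 and Srsf3 had 40.4 ± 4.17 CPM per kb, and from Srsf2 to Srsf3 each gene overlapped with the next. Srsf11 stood apart from its neighbours on both sides at 23.7 ± 1.70 CPM per kb. Srsf10 and Srsf4 were the lowest and overlapped, at 12.8 ± 1.77 and 12.3 ± 0.414 CPM per kb. Dividing by the longest annotated transcript put Srsf6 first at 118 and Srsf9 second at 104 CPM per kb, moved Srsf3 from place 7 to place 4 and Srsf1 from place 6 to place 8, and left Srsf10 and Srsf4 last. By that length Srsf11 moved from place 8 to place 7, at 64.5 CPM per kb beside Srsf5 at 65.9 CPM per kb. Srsf2 averaged 94.9 CPM per kb, near Srsf9. The order in the middle of the family thus rests on the choice of length. The gaps given above around Srsf11 and below the leading pair hold for the exon length alone.

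**Figure D4:**
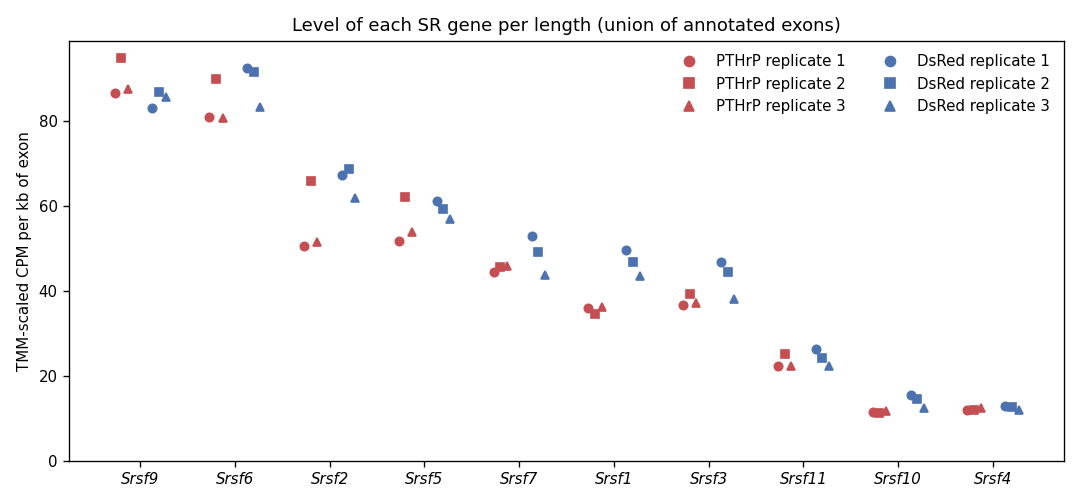
TMM-scaled CPM per kilobase of exon is plotted from 0 for each SR gene and library, ordered by the mean of the 6 libraries. Srsf9 and Srsf6 form the top pair and Srsf10 and Srsf4 the bottom pair.

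The length question arises because SR genes have many annotated transcript forms, which a count per gene adds together. The 10 genes have 85 annotated transcripts in GENCODE M21, of which 15 are classed as targets of nonsense-mediated decay and 26 as retaining an intron. A form of at least 1 of these classes is annotated for 9 members, all but Srsf10. Srsf11 has the most forms, 19, with 3 decay targets and 11 retained introns, while Srsf1 has 7, with 2 of each class. Srsf3 has 10 forms, of which 1 is classed as protein-coding. The counts do not separate productive from unproductive forms, so the levels above are of all forms together, and no amount of SR protein was measured.

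Other genes of the splicing pathway were taken as 6 lists with 162 entries, and 0 of them passed the edgeR test over all genes in either direction. At an unadjusted p under 0.05 the lists held 4 higher and 14 lower genes of 162, beside shares over all genes tested of 4.92% higher and 3.98% lower. DESeq2 called 2, Qk and Khdrbs3, both higher, and limma-voom called 0. SR-related and nuclear speckle proteins had negative fold changes for 23 of 27 genes, with a median of -0.07. Snrnp70, the U1 snRNP protein that SR proteins contact at 5′ splice sites, had 140, 130 and 139 CPM in the PTHrP libraries and 183, 168 and 151 CPM in the DsRed libraries. Its log2 fold change was -0.29 (SE 0.07, edgeR adjusted p = 0.300). Srrm1, a splicing coactivator with long RS repeats, had -0.26 (adjusted p = 0.387), and Bclaf1, an RS-rich nuclear protein, had -0.18 (adjusted p = 0.370). In each of these 3 genes all PTHrP libraries lay below all DsRed libraries, as in 4 of the 27 genes of the list (14.8%) and 7.88% of all genes. The opposite order was seen in 0 of the 27 genes and 8.45% of all genes, and nothing particular to the list is read from these shares.

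Among SR protein kinases, phosphatases and importers 13 of 18 genes had negative fold changes, with a median of -0.05. Clk1, a kinase of the RS tail, had 51.6, 53.7 and 47.8 CPM in the PTHrP libraries and 63.9, 57.9 and 53.6 CPM in the DsRed libraries. Its log2 fold change was -0.20 (SE 0.08, edgeR adjusted p = 0.505), and it spanned -0.26 (DsRed replicate 3 left out) to -0.13 (DsRed replicate 1 left out). Nxf1, the mRNA export receptor that SR proteins help to load, had -0.19 (SE 0.07, adjusted p = 0.446), and Ppp1cb, a catalytic subunit of protein phosphatase 1, had -0.15 (SE 0.06, adjusted p = 0.472). The PTHrP libraries of Nxf1 and Ppp1cb lay below the DsRed libraries, while those of Clk1 overlapped with them. Groups apart in that direction were seen in 4 of the 18 genes of the list (22.2%), other kinases included, and in 7.88% of all genes. The opposite order was seen in 0 of the 18 genes and 8.45% of all genes. Nothing particular to the list is read from these shares.

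The hnRNP and PTB proteins, which often oppose SR proteins at exons, were on the negative side for 15 of 26 genes, with a median of -0.02. Hnrnpa2b1, which encodes an abundant hnRNP that often silences exons, averaged 855 ± 43.8 CPM in PTHrP libraries and 973 ± 32.3 CPM in DsRed libraries (SD, n = 3 each). Its log2 fold change was -0.19 (SE 0.06, edgeR adjusted p = 0.370), and Hnrnpa3 had -0.19 (adjusted p = 0.446). Ptbp1, the polypyrimidine tract binding repressor, lay on the other side with 450, 463 and 411 CPM in the PTHrP libraries, against 370, 399 and 371 CPM in the DsRed libraries. All PTHrP libraries of Ptbp1 were above all DsRed libraries, with a difference of 0.22 on the log2 scale (SE 0.06, edgeR adjusted p = 0.348). That order was seen in 1 of the 26 genes of the list (3.85%) and 8.45% of all genes. The opposite order was seen in 5 of the 26 genes (19.2%) and 7.88% of all genes.

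In the list of decay and exon junction factors 10 of 18 genes were on the negative side, with a median of -0.03. Nbas, which takes part in the decay of some transcripts, had -0.20 (edgeR adjusted p = 0.554). Upf3a, a paralogue of the decay factor Upf3b, had 0.13 (adjusted p = 0.678), and the helicase gene Dhx34, which promotes decay, had 0.16 (adjusted p = 0.690). All 3 values moved with single PTHrP or DsRed libraries. Nbas spanned -0.28 (PTHrP replicate 1 left out) to -0.09 (PTHrP replicate 2 left out), and Upf3a 0.07 (PTHrP replicate 2 left out) to 0.19 (PTHrP replicate 1 left out). Dhx34 spanned 0.08 (DsRed replicate 3 left out) to 0.22 (PTHrP replicate 2 left out). Core spliceosome proteins were on the negative side for 15 of 36 genes, with a median of 0.02. The helicase gene Ddx23 had 0.30 with mean levels of 7.37 CPM (PTHrP) and 5.98 CPM (DsRed) and an edgeR adjusted p = 0.579, and Prpf3, of the tri-snRNP, had -0.12 (adjusted p = 0.586). Ddx23 spanned 0.19 (PTHrP replicate 3 left out) to 0.36 (PTHrP replicate 1 left out).

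Other splicing regulators of islets and neurons were on the negative side for 22 of 37 genes, with a median of -0.04. Qk, the RNA-binding protein quaking, had 102, 97.8 and 83.5 CPM in PTHrP, against 75.6, 48.5 and 55.3 CPM in DsRed. The groups of Qk did not overlap, and the log2 fold change of 0.66 (SE 0.16) had an edgeR adjusted p = 0.348 in the fit with all 6 libraries and 0.0444 to 0.820 with 1 library left out. Mbnl2, a muscleblind-like regulator, had -0.25 (SE 0.06, adjusted p = 0.300) and Sfpq, a paraspeckle protein, had -0.27 (SE 0.07, adjusted p = 0.314). In Mbnl2 and Sfpq every PTHrP library lay below every DsRed library, as in 4 of the 37 genes of the list (10.8%) and 7.88% of all genes. The opposite order was seen in 3 of the 37 genes (8.11%) and 8.45% of all genes.

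**Figure D5:**
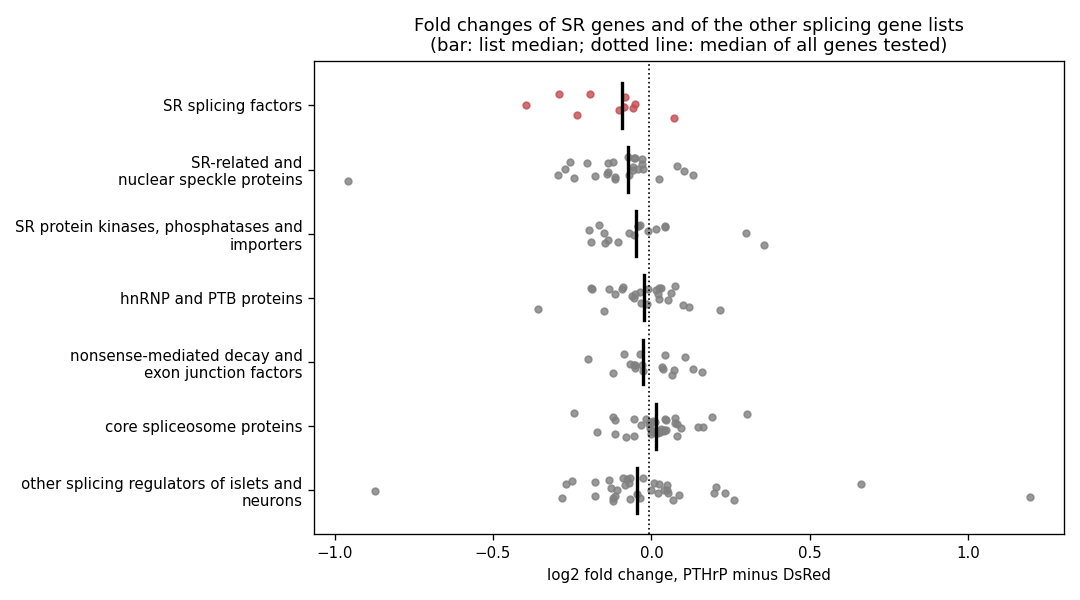
Each point is the log2 fold change (PTHrP minus DsRed) of 1 gene, for the 10 SR genes in red and the 6 other splicing lists in grey; bars are list medians and the dotted line is the median of all genes tested, -0.01. The median of the SR genes is -0.09, and those of the 6 lists run from -0.07 to 0.02.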

How the data were processed

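The deposited table holds raw counts per gene and library, made by the authors with bcl2fastq, STAR 2.7.9a and the Subread program featureCounts 2.0.3 on GRCm38, per the submitters' processing notes. The annotation, strand setting and rule for multiply matching reads were not given in the sources used here. Of 55774 entries 287 repeated an Ensembl identifier and were dropped. Groups and replicate numbers came from the library titles. Nothing says that replicates were separate cultures, so a p-value here measures the spread between these 6 libraries alone, and that spread may be technical. No 2 libraries agreed within sampling noise (chi-square per gene of 9.16 to 72.5).

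Genes kept by filterByExpr were fitted with the edgeR 4.0.16 quasi-likelihood F-test (R 4.3.3, TMM factors, robust, group term alone, two-sided), adjusted by Benjamini-Hochberg over all 21141 genes with a threshold of 0.05. The SE is the log2 fold change divided by the square root of F. The script was tested on simulated counts of 1 fixed dispersion, with a pass set on changes far larger than those of the members. That test does not bear on differences as small as those reported here. Alternatives were RLE factors, library size alone, DESeq2 1.42.0, limma-voom (3.58.1), no filter, a filter of 1 CPM or more in at least 3 libraries, a replicate block and each library left out. Exon lengths, transcript classes and overlaps came from GENCODE M21 (GRCm38), and promoters from RefSeq (GRCm38.p6), with all 10 members matched. The 7 motifs were searched on both strands. Protein sequences were not used here.

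The members and the 6 lists were chosen with earlier results of these data known. Named genes are the members, Srsf12, genes overlapping a member's exons, any list gene that passed and the 3 of each list with the smallest p. Some list genes are not reported here. Khdrbs3, Upf3b and Malat1 were chosen after their values were seen.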

Additional observations from a re-analysis of the deposited data

How the results depend on the processing

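The family's median log2 fold change (-0.09) and its difference in summed CPM kept their sign under every alternative run on them, and the median was -0.10 to -0.09 under the other scalings, filters and tools, with 9 of 10 members negative. With 1 library left out, the median ranged from -0.15 to -0.06 and the summed difference from -283 to -152 CPM. The number of all genes that passed, 9, was 14 with library size alone, 220 with no filter, 136 with DESeq2 and 2 to 213 with 1 library left out (4, 213 and 14 without PTHrP replicates 1, 2 and 3, and 4, 2 and 17 without DsRed replicates 1, 2 and 3), so the background share of called genes moves with the processing. The cause was not tested. Srsf1 passed with library size alone, no filter, the filter of 1 CPM (where 11 genes passed in total) and DESeq2. It also passed without PTHrP replicate 2 and without DsRed replicate 3. It did not pass with the main settings, RLE factors, limma-voom or the replicate block, or with any other library left out. Srsf10 passed with no filter, and Srsf2 without PTHrP replicate 2. These calls are no test of the members, which were picked with this comparison in view.

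Of the list genes, 0 passed in the fit with all libraries, 2 with no filter (Qk and Snrnp70), 2 with DESeq2 (Qk and Khdrbs3) and 0 to 2 with 1 library left out (Hnrnpa2b1 and Upf3b without PTHrP replicate 2, and Qk without DsRed replicate 1). The summed level per length of the 10 members was 470 CPM per kb of all exons and 678 CPM per kb of the longest transcript, by construction of the shorter length. Whether the replicate numbers pair the libraries was not settled. Deviations of same-numbered libraries from their group means correlated at 0.17, -0.06 and -0.03. PTHrP replicate 2 correlated best with DsRed replicate 3 (0.17). Such deviations cancel out within each group of 3 libraries, so the correlations are tied to each other and cannot exclude pairing. With the replicate block 7 genes passed, and no member or list gene among them, and the family's median was -0.09. With 3 libraries a group, small differences are limited by the spread between libraries rather than by depth.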

Other observations

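Among the splicing lists, 2 further genes whose groups did not overlap were picked out after their values were seen. Khdrbs3, an RNA-binding protein of the STAR family, had 150, 162 and 101 CPM in the PTHrP libraries and 81.6, 48.5 and 50.7 CPM in the DsRed libraries. Its log2 fold change was 1.19 (SE 0.29, edgeR adjusted p = 0.378). Malat1, the noncoding RNA of nuclear speckles, had 20.7, 5.54 and 19.5 CPM in the PTHrP libraries and 37.7, 27.3 and 23.8 CPM in the DsRed libraries (log2 fold change -0.96, SE 0.54, adjusted p = 0.687). PTHrP replicate 2 was the lowest of the 6 libraries for Malat1.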
